A study of Mus musculus with 39 samples.

Results

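The genes followed here are the chemokines and the chemokine receptors of the mouse. They were picked by symbol from the annotation of the array, as every gene whose symbol is Ccl, Cxcl, Cx3cl or Xcl (ligands) or Ccr, Cxcr, Cx3cr or Xcr (receptors) followed by a number and at most 1 letter. Of the 29411 gene symbols 53 matched, 36 of them ligands and 17 receptors. A gene was kept when its brightest probe exceeded background clearly, by the scanner software's own test, on 6 or more of 39 arrays, which left 48 genes, 33 ligands and 15 receptors. Ccl22, Ccr1 and Ccr8 (3 arrays each), Cxcl5 (3 arrays) and Cxcl3 (5 arrays) were not kept.

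RNA from stromal vascular cells of brown fat, labelled as infiltrating macrophages, was hybridised to Agilent arrays of 1 colour. C57BL/6J mice were weaned at 3 to 4 weeks of age and put on 1 of 5 diets with 30 animals each. LFC was a low fat diet with 10% of its calories from fat, and HFC was a high fat diet with more sucrose and 60% of its calories from fat. HF5, HF20 and HF75 were the same high fat diet with 5, 20 or 75 µg of the plant formulation KAL-1. Sex, genotype changes and pooling of animals are not given in the sources used here. LFC had 10 arrays and HFC 11, from Day 1, 6, 10 and 14 and from Week 0 to Week 18, where Week 0 was taken as the same day as Day 14 and LFC had no array at Week 6. HF5, HF20 and HF75 had 6 arrays each, at Week 3, 6, 9, 12, 15 and 18. Each diet thus had 1 array per time label, so the error of a comparison is the spread over time labels and holds animal, time and array together. For HF20 at Week 12 the title and source name give HF20, by which it was grouped, while 1 other label field lists no dose.

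Chemokines are small secreted proteins that steer leukocytes along a gradient, and their receptors are G protein-coupled receptors on the surface of the cells that respond. Ligands of the CXC kind with an ELR motif, such as Cxcl1 and Cxcl2, draw neutrophils through Cxcr2. Ccl2, Ccl7 and Ccl12 draw monocytes through Ccr2, and Ccl8 was grouped with them here. Ccl3, Ccl4 and Ccl5 draw monocytes and T cells, Cxcl9, Cxcl10 and Cxcl11 are induced by interferon and act on T cells through Cxcr3, and Cxcl12 keeps leukocytes in tissue and marrow through Cxcr4. In fat, chemokines of the monocyte group are known for the recruitment of macrophages in obesity.

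The labelled cell type was checked against its markers. Of 11 macrophage markers 10 were on the array and kept, and 6 were well above background on every array. Fat cell genes were present too, with 9 of 10 general and 6 of 8 brown adipocyte markers well above background on every array. The percent of spots well above background ran from 31.2 to 98.0 between arrays with a median of 57.3. On 3 arrays over 10% of spots were marked as outliers by the scanner software, and these left gaps: HF20 Week 15 had no value for 28 of the 48 genes, HF5 Week 12 for 5 and HFC Week 12 for 3, against 1 missing value on the other 36 arrays together. The fits were run on the values present and filled in none. In the deposited series table the reference column of Day 14, in which every value is 0, is named HFC, while at the other time labels it is named LFC, so the LFC and HFC labels of Day 14 may be exchanged. Between Day 14 and Week 0, by the labels as given, the absolute difference between the arrays of a diet had a median over the 48 genes of 0.64 (log2) in LFC and 1.41 in HFC.

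Levels are given as log2 of the processed spot intensity minus the log2 of the 75th percentile of the array, so that 0 is the level of a probe at that percentile. Levels of different genes come from different probes and are not ranked against each other. Of the 48 genes 17 were well above background on every array, 15 ligands and 2 receptors, Cxcr4 and Cxcr7. Cxcr7 is an atypical receptor that takes up Cxcl12. At least 20 arrays carried a signal well above background for 24 ligands and 13 receptors, and 9 ligands and 2 receptors reached it on 6 to 19 arrays. No spot of these genes was saturated.

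Ligands and receptors mostly shifted in the same direction on an array. On 33 of 39 arrays the median deviation of the ligands from their own means and that of the receptors had the same sign. All probes shifted between arrays too. The SD of the array medians was 0.49 for all probes, 1.06 for ligands and 1.02 for receptors (n = 39). How often all probes shared the sign was not counted, so the agreement is not shown to be particular to these genes. For the ligands the lowest array was LFC Week 12 at -2.29 and the highest HFC Week 12 at 2.19. On these arrays the median over all probes was -0.44 and 0.05. Over all probes the array medians lay between -2.26 and 0.57. The lowest of them was HF20 Week 15, where 71.4% of spots were marked as outliers. HFC spanned -2.21 to 2.19 for ligands and -1.60 to 1.54 for receptors. LFC spanned -2.29 to 1.31 for ligands and -1.64 to 0.79 for receptors. The SD within each diet was larger than every gap between the diet means, which for the ligands were -0.13 ± 0.95 in LFC (SD, n = 10), 0.20 ± 1.19 in HFC (n = 11), -0.22 ± 1.16 in HF5, -0.33 ± 1.11 in HF20 and 0.11 ± 1.10 in HF75 (n = 6 each). For the receptors the means were -0.28 ± 0.83, 0.27 ± 0.86, -0.52 ± 1.40, 0.08 ± 1.12 and 0.10 ± 1.14 in the same order.

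**Figure D1:**
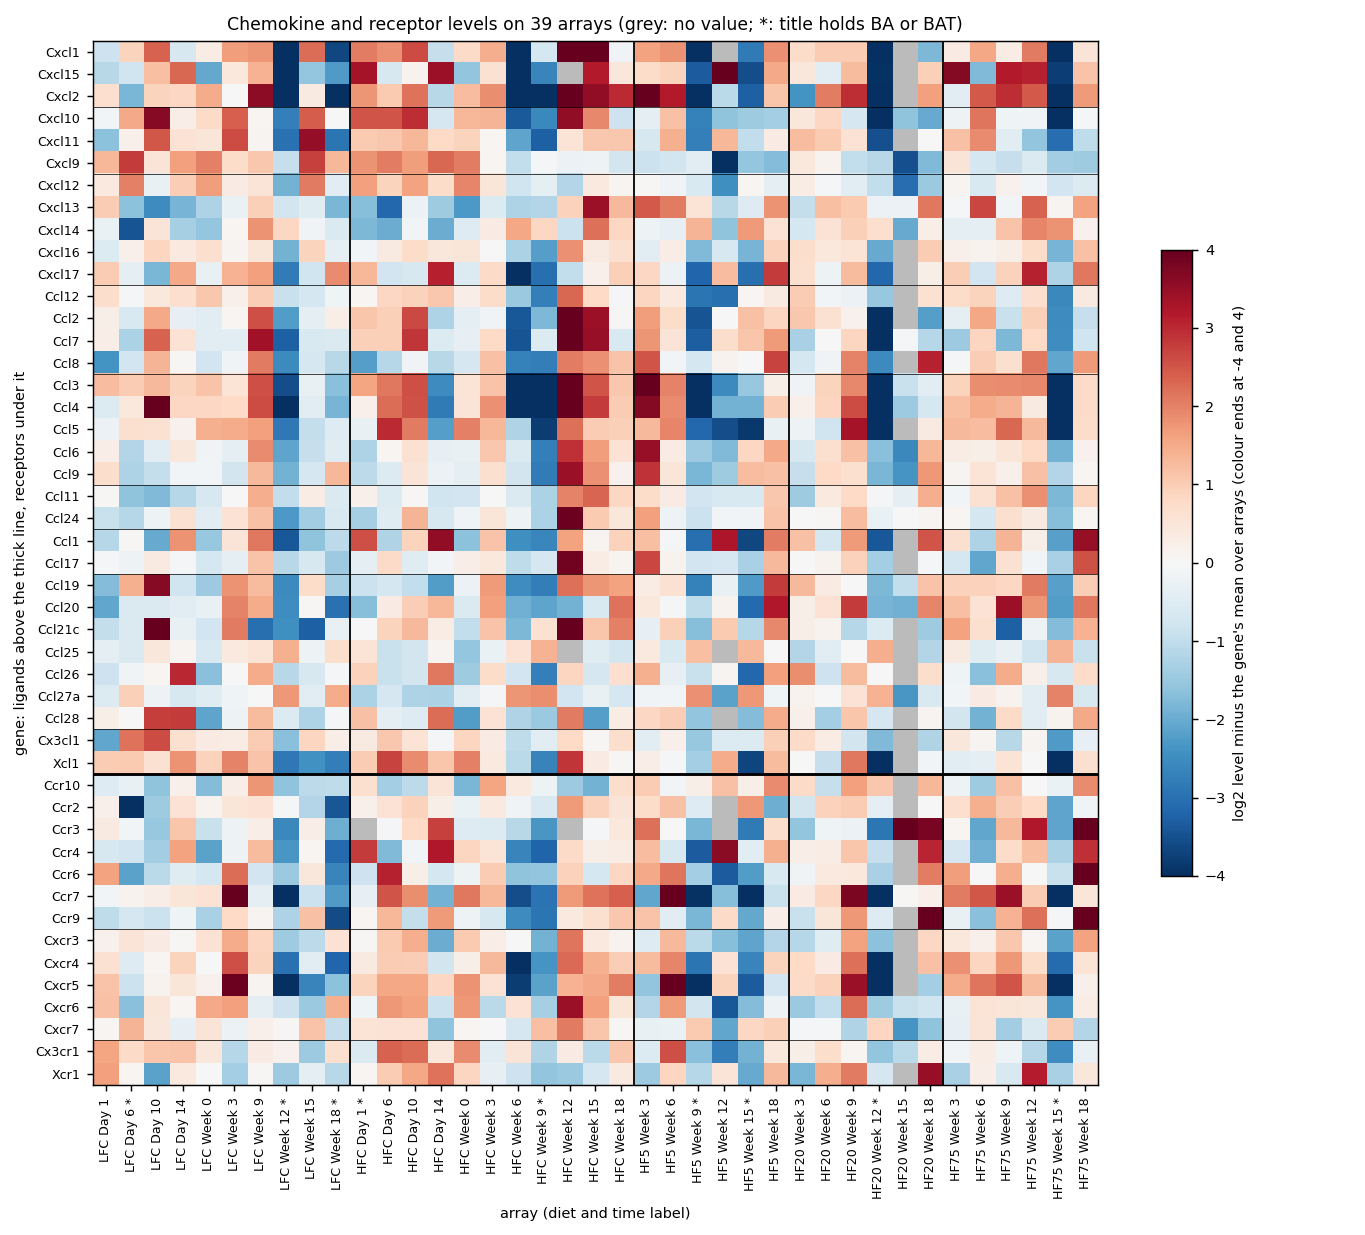
Each row is 1 of 47 of the kept genes, each column 1 array (diet and time label), and the colour is the log2 level minus the mean of that gene over the arrays. Columns with an asterisk have BA or BAT in their title, and most of those from Week 9 on are blue for ligands and receptors alike, as is HFC Week 6, while HFC Week 12 is red.

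**Figure D2:**
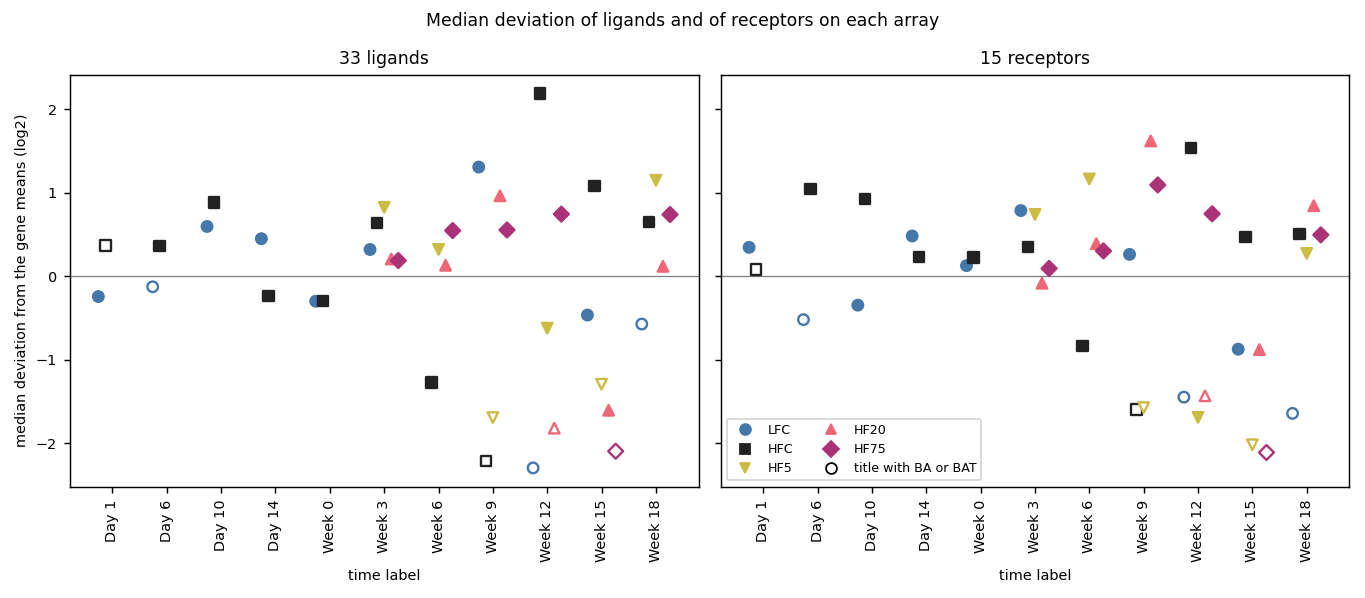
The median deviation (log2) of the ligands and of the receptors on each array is plotted over the time labels, with diets as colours and symbols. Open symbols are arrays with BA or BAT in the title. The titled arrays of Day 1 and Day 6 lie at 0.37 and -0.13 for ligands, and the 7 from Week 9 on lie between -2.29 and -0.57.

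The titles of 9 arrays hold the letters BA or BAT as 1 run (HFC Day 1, LFC Day 6, HFC and HF5 Week 9, LFC and HF20 Week 12, HF5 and HF75 Week 15 and LFC Week 18), and the other 30 have B, B-A or similar forms. The labels do not say what the letters stand for. They fall on all 5 diets. Values without them are given for some genes of HFC against LFC and of the slope, and for no gene of the dose comparisons. The split by title was used because earlier results of these data showed it to move with immune and fat cell genes. Its p-values and marker counts thus describe the split and are no independent test of it. In 1 limma fit with diet and time label as further terms, 37 of the 48 genes passed an adjusted p of 0.05, where 52.4% of all probes did. Lower on the titled arrays were 35 genes, 25 ligands and 10 receptors, beside 31.8% of all probes, and higher were 2 ligands, beside 20.5%. The median difference was -1.83 for ligands and -1.64 for receptors against -0.30 for all probes. In this bulk RNA, fewer cells of a type and less RNA per cell cannot be told apart. After this scaling a gene at background lay lower on a brighter array. Ccl22, well above background on neither array, lay at -9.29 on LFC Week 12, a titled array with a 75th percentile of 1289. On HF5 Week 18, with one of 24.3, it lay at -3.15. For genes near background a lower level on titled arrays thus need not mean less RNA.

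All 3 neutrophil ligands that were kept were lower on the titled arrays. On those arrays 2 of them were mostly not above background, so the sizes of their differences are uncertain. Cxcl2 had levels of -8.62 (lowest), -7.79 (median) and -0.24 (highest) on the 9 titled arrays, and of -7.70, -0.38 and 3.67 on 29 others. It was well above background on 2 of 9 titled and 26 of 30 other arrays, so most of its titled levels are at background. The sets overlapped, with HFC Day 1 the highest of the titled arrays and HFC Week 6 the lowest of the others. The fitted difference of Cxcl2 was -6.62 (SE 1.09, limma adjusted p = 0.000125). Cxcl1, which shares its receptor, lay at -6.01, -3.53 and 2.14 on titled arrays and at -5.77, 1.34 and 4.42 on the others, a difference of -4.59 (SE 1.01, limma adjusted p = 0.000946). Here too HFC Day 1 and LFC Day 6, at 0.99, lay among the untitled arrays, and HFC Week 6 lay among the titled ones. Cxcl15, a lung-type CXC ligand, differed by -3.67, but it was well above background on 1 titled and 9 other arrays, and its other probe gave 0.29.

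Cxcl1 and Cxcl2 both lie on chromosome 5, and their promoters are shown with that of Ccl3, which was also lower on these arrays, and that of Cxcl12, which did not pass. The sequences are from RefSeq (GRCm38.p6), 250 bases before to 50 after the start of the gene. Cxcl1 is at chr5:90890995-90891294 and Cxcl2 at chr5:90903649-90903948, both on the plus strand. Ccl3 is at chr11:83649329-83649628 on the minus strand and Cxcl12 at chr6:117168285-117168584 on the plus strand. Capitals mark each match to GGGANNNNCC on either strand, letters that many binding sites of NF-kB hold. Where matches on both strands overlap they are written as 1 run.
Cxcl1: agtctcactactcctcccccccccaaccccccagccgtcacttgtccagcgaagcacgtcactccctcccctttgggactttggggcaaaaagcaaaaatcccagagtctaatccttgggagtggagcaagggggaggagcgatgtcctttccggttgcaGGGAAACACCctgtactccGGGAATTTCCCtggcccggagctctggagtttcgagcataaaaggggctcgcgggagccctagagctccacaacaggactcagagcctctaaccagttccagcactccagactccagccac
Cxcl2: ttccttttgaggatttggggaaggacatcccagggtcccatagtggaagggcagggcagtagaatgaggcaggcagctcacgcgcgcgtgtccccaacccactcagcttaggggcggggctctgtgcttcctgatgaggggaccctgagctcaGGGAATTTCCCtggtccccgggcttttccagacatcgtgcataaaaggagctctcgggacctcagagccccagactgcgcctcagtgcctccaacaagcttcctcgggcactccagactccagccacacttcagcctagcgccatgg
Ccl3: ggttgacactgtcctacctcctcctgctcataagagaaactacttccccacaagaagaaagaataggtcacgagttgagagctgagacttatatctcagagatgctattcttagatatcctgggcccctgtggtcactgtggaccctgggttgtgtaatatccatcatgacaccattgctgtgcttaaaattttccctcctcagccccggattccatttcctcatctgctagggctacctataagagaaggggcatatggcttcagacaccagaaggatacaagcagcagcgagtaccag
Cxcl12: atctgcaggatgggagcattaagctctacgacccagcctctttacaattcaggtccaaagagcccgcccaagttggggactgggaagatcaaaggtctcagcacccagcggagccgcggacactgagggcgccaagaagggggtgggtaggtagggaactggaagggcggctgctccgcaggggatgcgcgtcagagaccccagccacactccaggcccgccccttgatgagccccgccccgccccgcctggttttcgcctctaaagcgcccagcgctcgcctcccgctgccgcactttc
Cxcl1 held matches at 90 to 81 and at 71 to 61 bases before the start, and Cxcl2 at 97 to 87. Ccl3 and Cxcl12 held none in these windows. A match stood in 20.7% of the 32851 promoters listed. A promoter was listed for 36 of the 53 genes, and 16 of them held a match. Counted by promoter it was 18 of their 40. Among the 35 genes lower on titled arrays, 10 of the 23 with a promoter held one, and among the other 13 kept genes, 2 of 9. Among the 5 genes not kept, all 4 with a promoter held one, so a match was not particular to the genes that were lower. A match describes these letters and is no sign that a factor binds there.

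Of the group of Ccl3, Ccl4, Ccl5, Ccl6 and Ccl9, 5 of 5 were lower with a median difference of -3.23. Ccl3 lay at -8.56, -4.40 and 0.74 on titled arrays and at -6.08, 0.27 and 4.14 on the others, and differed by -4.58 (SE 0.99, limma adjusted p = 0.000768). Ccl4 lay at -5.59, -3.65 and 1.04 on titled arrays and at -3.95, 1.55 and 6.06 on the others, and differed by -4.45. Both are made by activated myeloid cells. Ccl5, a product of T cells and natural killer cells, differed by -3.23 with levels of -3.86, -2.72 and 1.08 against -3.11, 1.66 and 3.76. In all 3 the highest titled arrays were those of Day 1 and Day 6, within the range of the others.

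Of the monocyte group of Ccl2, Ccl7, Ccl8 and Ccl12, 4 of 4 were lower, with a median of -2.46. Ccl2, the main ligand of Ccr2, lay at -3.23, -0.21 and 2.75 on titled arrays and at -1.81, 1.75 and 6.03 on the others, a difference of -2.41 (SE 0.77, limma adjusted p = 0.0113). Its groups overlapped widely, and it no longer passed with normexp background correction, with the methods' t-test or without Week 9 or Week 12. Both ligands grouped here as drawing eosinophils, Ccl11 and Ccl24, were lower with a median of -1.53. Ccl26 was not counted in this group. Ccl1 and Ccl17, ligands of Ccr8 and Ccr4, also passed as lower, but Ccl1 was well above background on 1 of 9 titled and 5 of 30 other arrays and Ccl17 on 7 and 9, so these are differences between values mostly near background. Of the interferon-induced ligands 2 of 3 were lower, Cxcl10 and Cxcl11. Cxcl9 was not, with a mean of 0.91 ± 1.56 on titled arrays (SD, n = 9) and 0.85 ± 1.66 on the others (n = 30). Of the other CXC ligands 3 of 5 were lower. The remaining 2 were Cxcl12, with 4.12 ± 1.25 on titled arrays, 4.31 ± 1.14 on the others and a fitted difference of 0.02 (SE 0.40) that became 1.48 and passed with normexp, and Cxcl14, with 1.28 ± 1.78 and 1.08 ± 1.16.

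In the group listed as lymphoid and epithelial ligands, in which Ccl26 was counted, 3 of 7 were lower and 2 higher. Ccl25, known for drawing T cells to thymus and gut through Ccr9, lay at -1.21 to 0.82 on titled arrays (mean 0.35 ± 0.67, SD, n = 9) and at -2.16 to -0.05 on the others (-0.95 ± 0.57, n = 27), and was higher by 1.27 (SE 0.28). Its other probe gave 0.44, and with the marked spots kept it was 0.75, neither of which passed. Ccl27a, a skin chemokine that binds Ccr10, lay at -2.05, 0.94 and 1.19 against -3.11, -1.14 and 0.99 and was higher by 1.95 (SE 0.32), but its 2 other probes gave -0.53 and -0.85, so its direction depends on the probe.

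Of the receptors 6 of 8 CC and 3 of 5 CXC receptors were lower, and Xcr1 of the 2 others. Ccr7, which guides dendritic cells and naive T cells to lymph nodes, lay at -7.43, -5.73 and -1.64 on titled arrays and at -5.33, -1.07 and 3.05 on the others, a difference of -4.06 (SE 0.87). Cxcr4 lay at -5.60, -4.08 and -0.78 against -6.35, -0.27 and 1.42 and differed by -3.56 (SE 0.62), with -3.85 from its other probe. Its low value among the others was again HFC Week 6, at -6.35. Cxcr5, which takes B cells to follicles, passed as lower but was well above background on 3 of 9 titled and 23 of 30 other arrays. Ccr3, the eosinophil receptor, differed by -3.35. For Cxcl12, the ligand of Cxcr4, the interval of the difference was -0.81 to 0.84. Ccr2 passed as lower on its brightest probe, at -2.21 ± 1.83 on 9 titled and -0.87 ± 0.84 on 28 other arrays, but its other probe gave -0.26 (SE 0.48) and did not pass. The brightest probe was well above background on 7 of 9 titled and 28 of 30 other arrays. It was at background on LFC Day 6 and LFC Week 18. Among those not past the threshold were Ccr10, Cxcr6, Cxcr7 and Cx3cr1 among the receptors and Ccl21c, Ccl28, Cx3cl1, Cxcl9, Cxcl12 and Cxcl14 among the ligands.

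**Figure D3:**
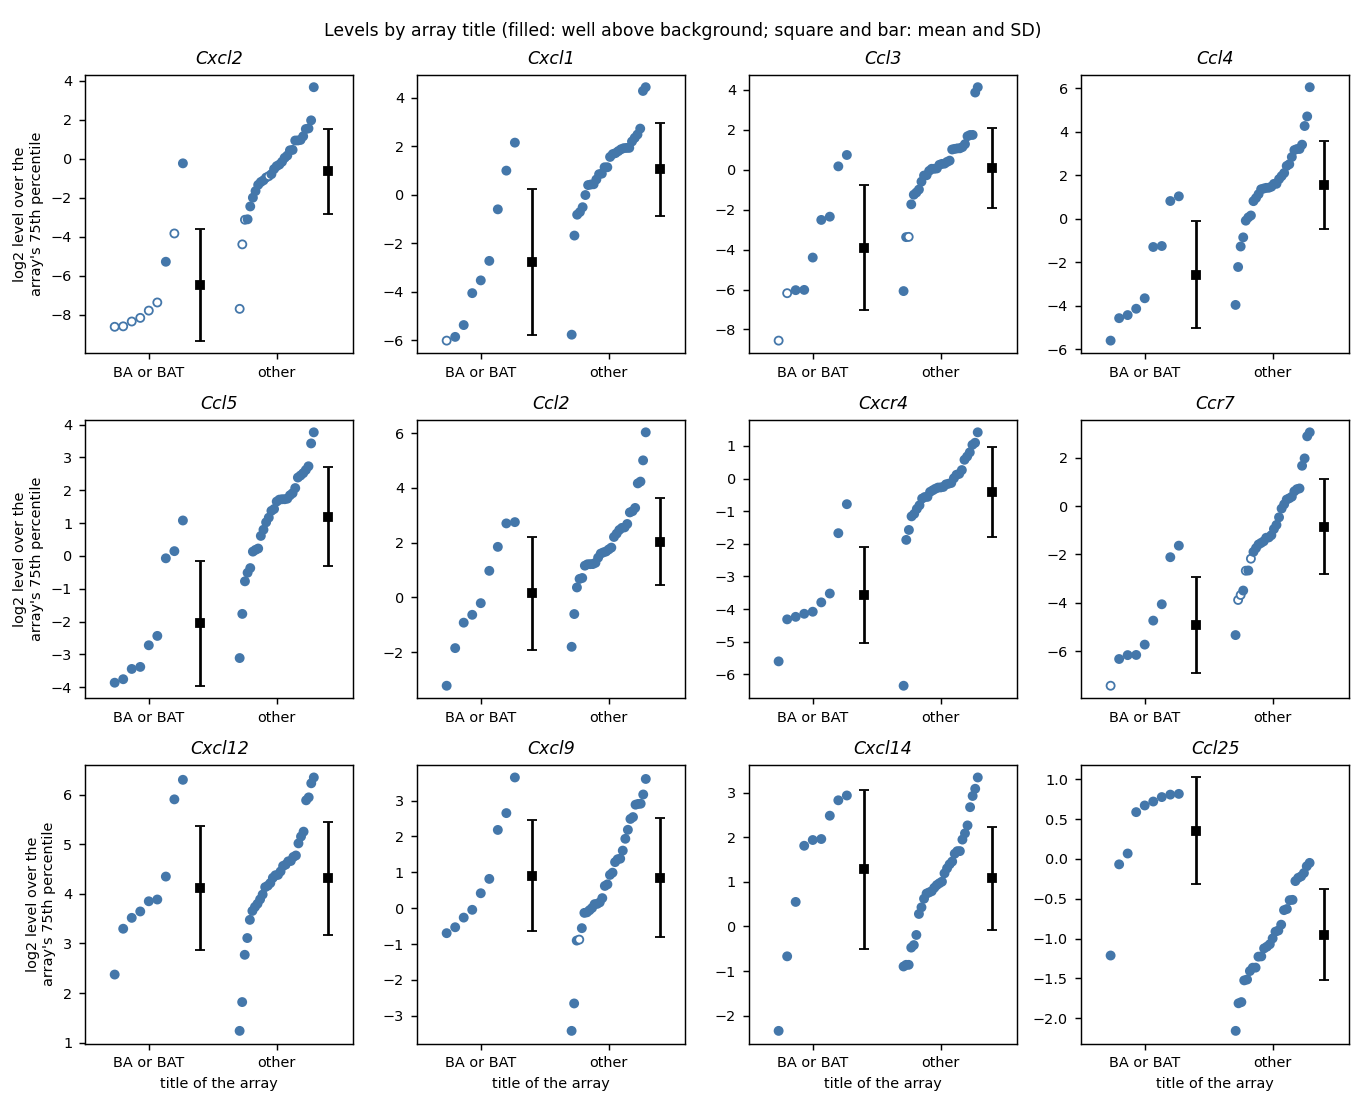
The level (log2, relative to the 75th percentile of the array) of 12 genes is plotted on the titled and the other arrays, sorted within each set. Filled points are well above background, and the square and bar are the mean and SD. Cxcl2, Cxcr4 and Ccr7 are shifted down on most titled arrays, Cxcl12, Cxcl9 and Cxcl14 are not, and Ccl25 is shifted up.

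Within time labels the difference was of unequal size. At Day 1 only 18 of 47 genes were lower on the titled array, with a median of 0.35, and 39.04% of all probes were lower. At Day 6 it was 33 of 48 with a median of -0.93, beside 40.3% of all probes. From Week 9 on it was 43 of 48 at Week 9 (median -2.70), 42 at Week 12 (-2.56), 39 at Week 15 (-1.72) and 35 at Week 18 (-1.51), beside 63.9%, 53.7%, 53.0% and 56.4% of all probes. On the slide of Week 12 that held both kinds of title, 44 of 48 genes were lower with a median of -2.53, beside 56.8% of all probes. On such a slide of Week 15, shared with HF20 Week 15, 12 of the 20 genes with a value were lower with a median of -1.29, beside 26.3% of all probes. Arrays scanned on the same date gave 42, 39 and 39 of 48 at Week 12, 15 and 18, beside 53.7%, 53.0% and 59.5% of all probes. Without Week 9 the count of genes past the threshold fell to 23, the lowest of all time labels left out.

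The scaling set how many passed. With quantile normalization 22 genes did, 20 of them lower, beside 10.2% of all probes lower. That normalization turned the split over all probes from 6986 higher and 10842 lower to 7637 and 3488, and scaling by the median gave 10627 and 6567 with a median over all probes of 0.33 in place of -0.30. Normexp moved it the other way, to 7752 higher and 20678 lower with a median of -1.30, and then 44 of the 48 genes passed. The medians of ligands and receptors stayed under 0, at -1.23 and -1.05 with quantile normalization, -1.18 and -1.09 with median scaling and -1.61 and -2.16 with normexp. Among probes well above background on every array 12 of 17 genes were lower, beside 12.7% of such probes. The titled arrays were brighter, with a 75th percentile of 124 to 1289 (median 852) against 18.1 to 3974 (median 81.1).

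Markers of other cells were counted over the same split, beside 31.8% of all probes lower and 20.5% higher. All 10 neutrophil markers kept were lower (median -4.65), led by Mmp8 at -5.41, and their summed level was 0.32 to 6.13 on titled and 0.71 to 10.3 on other arrays. T cell markers were lower in 7 of 10, B cell markers in 6 of 8, erythroid markers in 6 of 7 and fibroblast markers in 5 of 8. Dendritic cell markers, with 2 of 5, and endothelial markers, with 2 of 7, were near the share of all probes. Macrophage markers were lower in 6 of 10 with a median of -1.11, and their summed level was 2.39 to 3.87 on titled and 1.69 to 6.32 on other arrays. In the fitted differences, fat cell markers went the other way, with 7 of 10 general adipocyte markers higher and 1 lower (median 1.57). Of the brown adipocyte markers 3 of 8 were higher (median 0.73), while 0 of 7 skeletal muscle markers passed. The summed level of the general adipocyte markers was 8.05 to 10.6 on titled arrays (median 8.95) and 4.88 to 11.5 on others (median 9.75). For the brown adipocyte markers the medians were 8.40 and 8.38, so neither sum was clearly higher on titled arrays. The part of these cells in the chemokine differences was not tested.

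Genes of the pathway that the symbols do not cover were also compared. Of 34 genes for chemokine binding and signalling 19 were lower and 2 higher, beside 31.8% and 20.5% of all probes, led by Rgs1, a brake on G protein signals, at -5.35 and with Ccrl2, a receptor that binds chemerin, at -3.49. Of 18 cytokines and factors that induce chemokine genes 11 were lower, led by Il6 at -6.91, Il1b at -5.52 and Ifng at -4.16.

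The high fat diet was compared with the low fat diet at the 10 time labels they share. No gene passed an adjusted p of 0.05, and none of all probes did (0%). By unadjusted p under 0.05 there was 1 gene, beside 2.82% of all probes, and the methods' t-test gave 0. In sign 37 of 48 genes were higher in HFC, beside 18458 of 34043 probes. The median difference was 0.18 for the ligands (23 of 33 higher) and 0.55 for the receptors (14 of 15 higher), against 0.05 for all probes. With normexp the receptor median was -0.18, and with median scaling the ligand median was -0.16, so neither sign held in every setting. Neutrophil markers were higher in sign in 10 of 10 (median 0.62) and T cell markers in 9 of 10 (0.47), brown adipocyte markers lower in 7 of 8 (-0.55), and none of these passed. Their part in the signs of the chemokine genes was not tested.

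Ccr2, the receptor of inflammatory monocytes, had the smallest p. It lay at -5.22, -1.17 and -0.60 (lowest, median, highest) in LFC and at -1.81, -0.80 and 0.50 in HFC. The lowest LFC arrays were Day 6 (-5.22) and Week 18 (-4.61), both titled with BA or BAT. Day 10 (-2.61) and Week 15 (-2.36), not so titled, also lay under every HFC array, and the other 6 LFC arrays overlapped with HFC. The difference was 1.15 (SE 0.53, interval 0.06 to 2.25, limma p = 0.0392, adjusted p = 0.9995), with HFC higher at 6 of 10 time labels. It was 0.68 without the titled arrays and 0.37 on the other probe of the gene. Ccl21c, a lymphoid ligand of Ccr7 from a family of near-identical copies that a probe may not tell apart, differed by 1.32 (SE 0.65) and by 0.37 without the titled arrays. Ccl24, an eosinophil ligand made by macrophages, differed by 0.77 (SE 0.50) and by 1.11 on its other probe, and by 0.21 without Week 12.

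Ccl2, the chemokine most often tied to fat inflammation, spread widely over time. It lay at -0.64, 1.47 and 4.16 in LFC and at -1.81, 1.64 and 6.03 in HFC, with means of 1.66 ± 1.28 (SD, n = 10) and 2.11 ± 2.32 (n = 11). HFC minus LFC ran from -4.38 at Week 9 to 6.67 at Week 12, and HFC was higher at 6 of 10 time labels. HFC Week 9 was a titled array, and at Week 12 the LFC array was. The fitted difference of 0.45 (interval -1.37 to 2.26) turned to -0.13 without the 3 arrays with many marked spots, HFC Week 12 among them, and to -0.18 without Week 12.

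**Figure D4:**
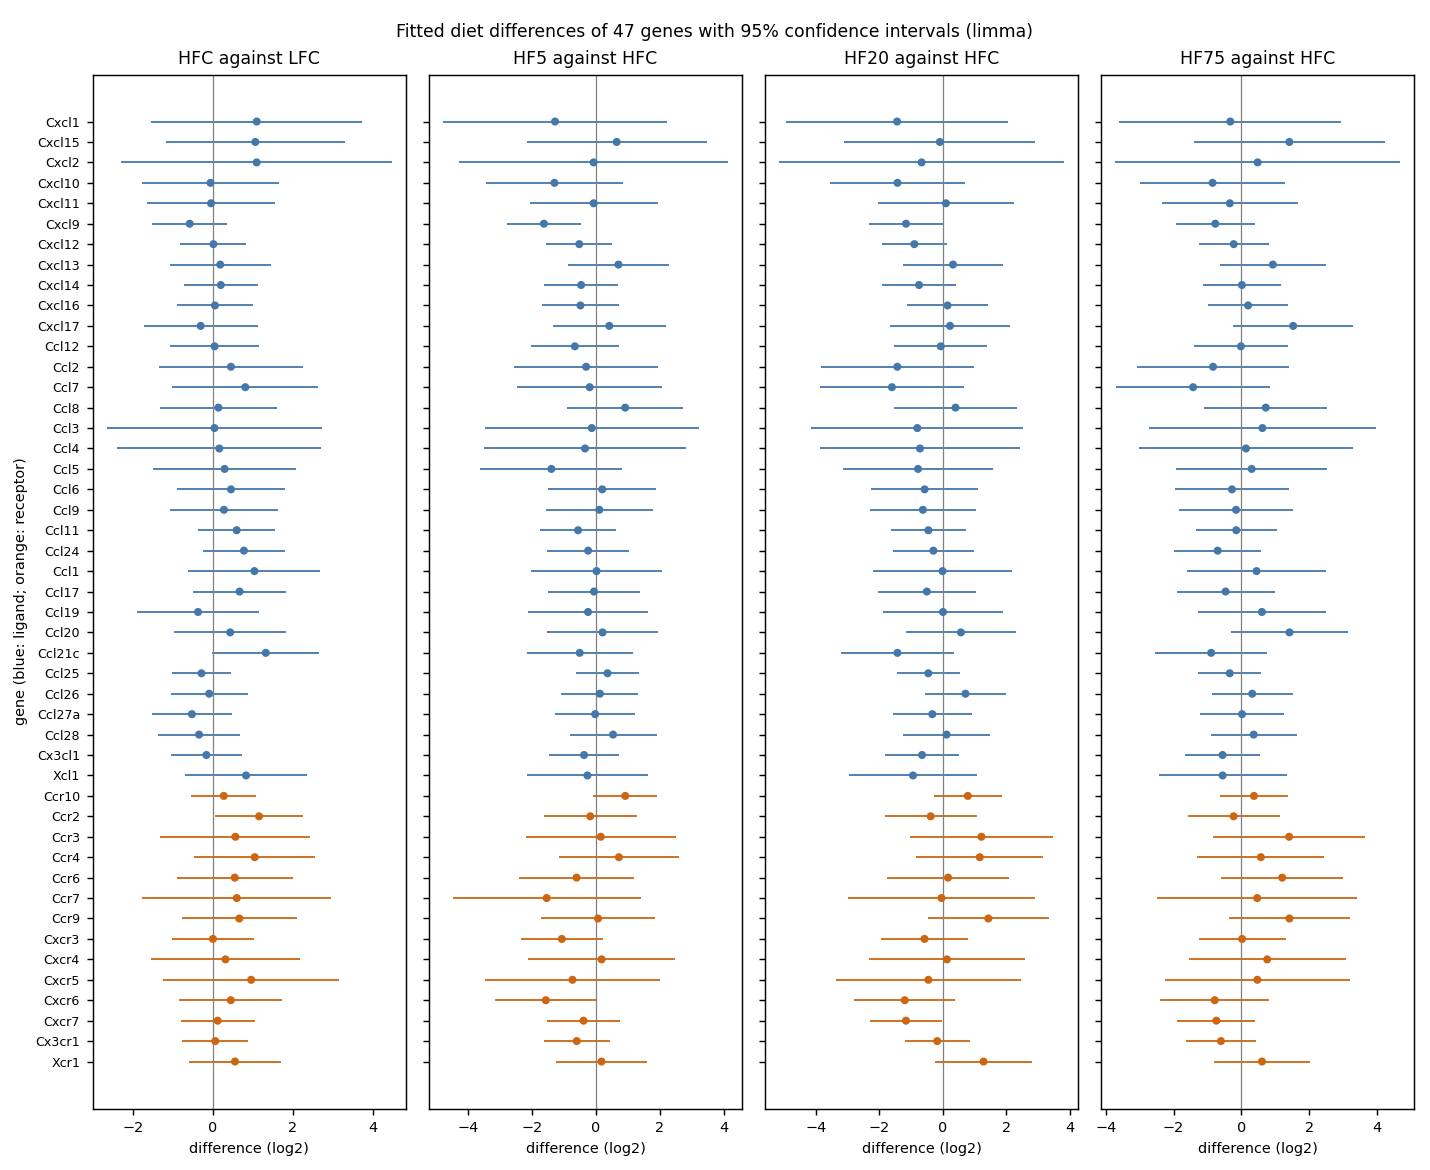
Points are the fitted differences (log2) of 47 of the kept genes for HFC against LFC and for each dose against HFC, with 95% confidence intervals from limma, ligands in blue and receptors in orange. The interval leaves out 0 for Ccr2 in HFC against LFC, for Cxcl9 at 5 µg and for Cxcr7 at 20 µg, and crosses it for every other gene drawn.

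Each dose of KAL-1 was compared with HFC, and the 3 comparisons share the HFC arrays. No gene passed an adjusted p of 0.05 at 5, 20 or 75 µg in limma, as for all probes (0% each), and the methods' t-test gave 0 in each. By unadjusted p under 0.05 there was 1 gene at 5 µg, beside 1.46% of all probes, 1 at 20 µg, beside 2.66%, and 0 at 75 µg, beside 3.55%. The titled arrays mattered here. Without them 4171, 2793 and 2204 of 34043 probes had such a p at 5, 20 and 75 µg, in place of 498, 907 and 1210. The gene values under this setting are not given. The median differences of ligands and receptors were -0.19 and -0.18 at 5 µg, -0.50 and -0.04 at 20 µg, and -0.01 and 0.47 at 75 µg, and those of all probes were -0.03, -0.02 and 0.05. Without the 3 arrays with many marked spots the ligand medians were 0.04, 0.21 and 0.41, so their sign at 5, 20 and 75 µg turned.

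Cxcl9, which draws activated T cells, was named in each dose comparison. From Week 3 to Week 18 it lay at 0.93, -0.13, 0.82, 0.62, 0.66 and 0.11 in HFC, in the order of the weeks. HF5 had 0.01, 0.12, 0.42, -3.42, -0.70 and -0.88. HF20 had 1.28, 0.99, -0.12, -0.26, -2.66 and -0.90, and HF75 had 1.37, 0.16, -0.06, 0.28, -0.53 and -0.56. The lowest values, HF5 Week 12 and HF20 Week 15, came from 2 of the 3 arrays with many marked spots, and all groups overlapped. The difference from HFC was -1.62 at 5 µg (SE 0.57, limma p = 0.0082, adjusted p = 0.99996, lower at 5 of 6 weeks), -1.16 at 20 µg (lower at 4 of 6) and -0.77 at 75 µg (lower at 4 of 6). Without the marked arrays these were -1.14, -0.57 and -0.71. The fit also uses the early LFC and HFC arrays for its time terms, and the methods' t-test gave -1.24, -0.78 and -0.39.

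The other genes with the smallest p at each dose did not pass either. At 5 µg Cxcr6, the receptor of Cxcl16 on T and natural killer T cells, differed by -1.56 (SE 0.78) and by -0.66 without the marked arrays. Ccr10, the receptor of Ccl27a and Ccl28, differed by 0.92 (SE 0.49) and was well above background on 3 of 6 HF5 and 3 of 11 HFC arrays. At 20 µg Cxcr7 differed by -1.16 (SE 0.56, limma p = 0.0483) and Cxcl12 by -0.90 (SE 0.50), and these were -0.43 and -0.40 without the marked arrays. Cxcr7 was lower than HFC at 5 of 6 weeks and Cxcl12 at 4 of 6. At 75 µg Cxcl17, a mucosal chemokine, differed by 1.53 (SE 0.86), Ccl20, the ligand of Ccr6, by 1.42 (SE 0.85), and Ccr9 by 1.42 (SE 0.87). Cxcl17 was well above background on 1 of 6 HF75 and 3 of 11 HFC arrays and Ccl20 on 3 and 2, so both stand near background. With array weights the 3 differences shrank to 0.16, 0.47 and 0.13.

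Markers of endothelial cells, which make Cxcl12 and can make Cxcl9, were lower in sign in 7 of 7 at 5, 20 and 75 µg, with medians of -0.96, -0.93 and -0.57. Their summed level was 5.05 to 7.99 in HFC, 4.07 to 6.07 in HF5, 3.06 to 6.88 in HF20 and 4.97 to 6.69 in HF75. The HFC range holds all 11 HFC arrays, with the highest at Week 0, before the doses start. Endothelial markers also had slopes under 0 over time, so time and dose are mixed in these ranges. The lowest HF5 and HF20 arrays were Week 12 and Week 15, which had many marked spots. Neutrophil markers were higher in sign in 9, 9 and 10 of 10, with medians of 1.00, 1.15 and 1.45. Of all 34043 probes 17973, 17479 and 15688 were lower in sign and 16070, 16564 and 18355 higher. None of these markers passed, and their part in the values of Cxcl9 and Cxcl12 was not tested.

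Over time the slope per doubling of days was fitted in the 21 arrays of LFC and HFC. No gene passed, as for all probes (0%, limma). By unadjusted p under 0.05 there were 6 of 48 genes, 5 ligands and 1 receptor, beside 11.9% of all probes, a share near that of all probes. The methods' t-test was not run for a slope. The median slope was -0.04 for ligands and -0.14 for receptors against -0.05 for all probes. Every scan date held 1 time label, so time and scan date cannot be told apart.

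Cxcl14, a chemokine also known to be secreted by brown fat cells, had a slope of 0.38 (SE 0.12, limma p = 0.0047, adjusted p = 0.242). In LFC it lay at -2.34, 0.92 and 2.92 (lowest, median, highest), with the lowest on Day 6 and the highest at Week 9. In HFC it lay at -0.86, 1.00 and 3.34, with the lowest on Day 6 and Day 14 and the highest at Week 15. Its early and late arrays overlapped in both diets. Ccl27a had a slope of 0.20 (SE 0.09) that its other probes did not share, at -0.049 and -0.0023.

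Cxcl9 and Cxcl12 had slopes under 0, at -0.29 (SE 0.10) and -0.24 (SE 0.10). In HFC the 5 arrays from Day 1 to Week 0 had Cxcl9 at 2.65, 2.91, 2.54, 3.17 and 2.91, and the 6 from Week 3 on, given above, were all lower. In LFC the arrays to Week 0 had 2.19, 3.65, 1.38, 2.49 and 2.89, and the later ones 1.61, 1.94, -0.05, 3.60 and 2.18, so early and late arrays overlapped. Cxcl12 in HFC showed the same picture as its Cxcl9, with 5.90, 5.16, 5.89, 5.02 and 6.23 up to Week 0 and 4.74, 3.48, 3.89, 3.11, 4.66 and 4.37 from Week 3 on. Its LFC values overlapped, with 3.99 to 6.30 early and 2.37 to 6.35 late. The division at Week 3 was chosen after the values were seen, and whether the diets differ in slope was not tested. The slope of Cxcl12 was -0.09 without the titled arrays and -0.08 on its other probe.

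Xcl1, made by natural killer and T cells, and its receptor Xcr1, which marks cross-presenting dendritic cells, had slopes of -0.42 (SE 0.15) and -0.28 (SE 0.10). The other probe of Xcr1 gave -0.05. Xcl1 was well above background on 15 of 39 arrays. All 7 endothelial markers had slopes under 0 with a median of -0.29, and all 7 had an unadjusted p under 0.05 while none passed, and the erythroid markers had a median of -0.40. Of all 34043 probes 21658 had slopes under 0. The part of these cells in the slopes of the chemokine genes was not tested.

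**Figure D5:**
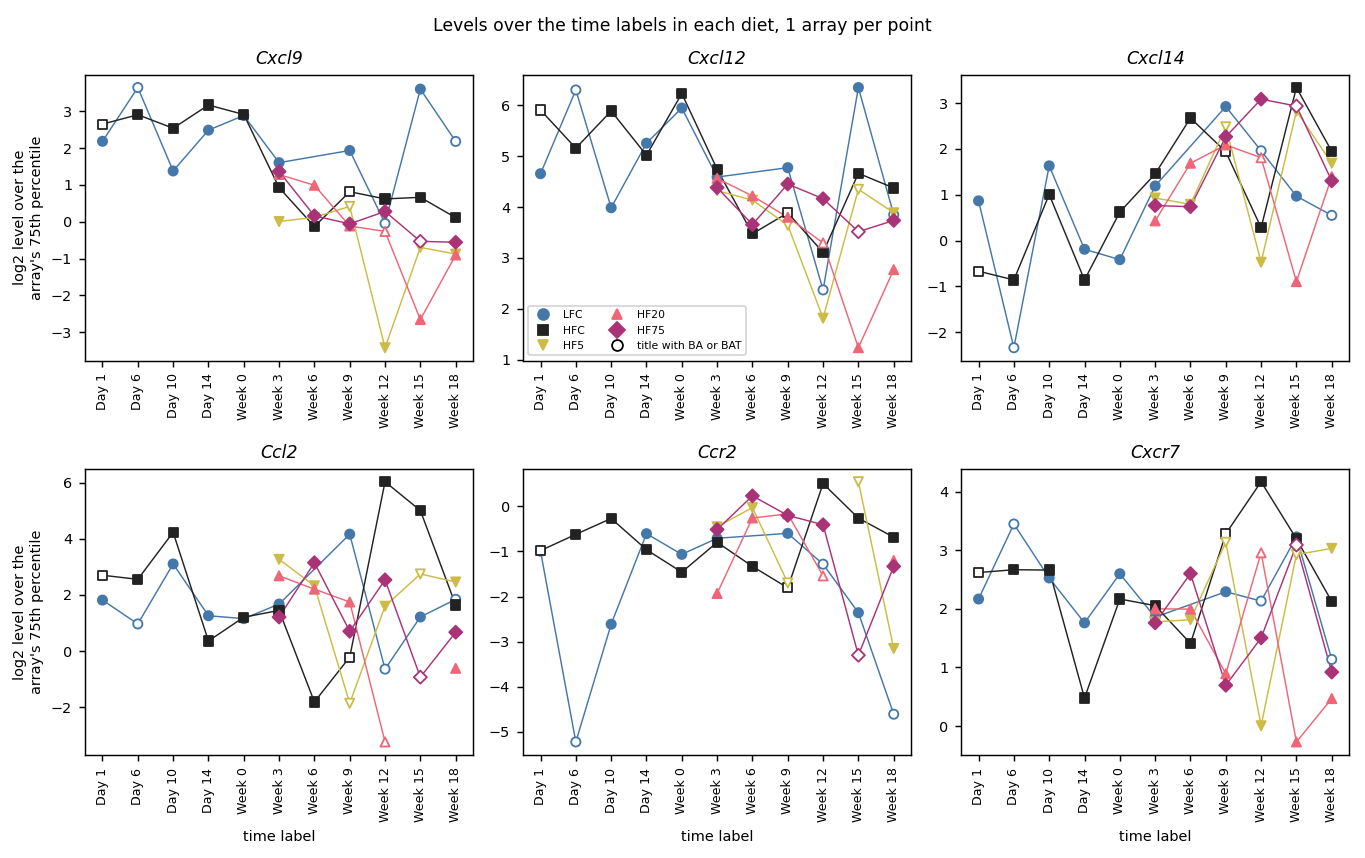
The level (log2, relative to the 75th percentile of the array) of 6 genes is plotted over the time labels, 1 line per diet and 1 point per array, with open points for titles with BA or BAT. Cxcl9 and Cxcl12 in HFC are higher up to Week 0 than from Week 3 on, while Ccl2 and Ccr2 swing between neighbouring time labels.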

How the data were processed

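Spot intensities were deposited as scanner files of 1-colour Agilent arrays. The submitters' processing notes name Feature Extraction 9.1 and the file headers 10.5.1.1. Of the deposited series table, which holds the authors' log2 fold changes, only the pairing of probes with symbols was used. The background-subtracted processed intensity was put on the log2 scale and the 75th percentile of each array was subtracted. Control spots and spots marked as outliers were left out. A probe was kept if well above background on at least 6 arrays (34043 probes, 24723 genes), and the brightest probe stood for a gene. Differences were fitted with limma 3.58.1 in R 4.3.3 over all arrays with diet and time label as terms, the title as a further term for the title comparison, and adjusted over all probes by the Benjamini-Hochberg method (threshold 0.05). The slope used log2 of days in LFC and HFC. Time labels served as replicates, and whether they are separate animals is not given, so p-values measure the spread between these arrays.

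The time label was kept as a block as in the planned fit. The correlation of LFC and HFC deviations at the same time label had a median of 0.179 and was over 0.1 at 5 of 10, so the labels do not all pair the arrays. Named were the genes past the threshold with the largest changes, or else the 3 with the smallest p, beside a fixed set of inflammatory members. Members, lists and tests were chosen with earlier results of these data known. Promoters came from RefSeq (GRCm38.p6). The fits were tested on simulated data with 200 probes changed. A 2-fold change passed in 0 to 0.5% of these probes. A 4-fold change passed in 24 to 44.5% for the diet comparisons, 43% for the titles and 4.5% for the slope. A 16-fold change passed in 86.5 to 95.5%, 95% and 62.5%. Fold changes of the slope were over the whole span of days. Where no gene passed, changes of 2-fold or 4-fold are thus not excluded. Alternatives were slide and scan date as random blocks (statmod 1.5.0), normexp (offset 50), quantile and median scaling, other filters, array weights, Welch's test as the methods' t-test, the titles, and leaving out each time label. Tables and figures were made with Python 3.11.15, pandas 2.3.3, numpy 2.4.6, scipy 1.17.1 and matplotlib 3.10.9. Values of 1 member and of 1 pathway gene are not reported here, but both stay in the counts and medians.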

Additional observations from a re-analysis of the deposited data

Results flagged for a closer look

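For 27 genes the arrays within a diet were searched for a highest or lowest array that stood far from its neighbour. Of 108 groups searched 19 had one, where chance flags about 1 in 20 groups. The groups searched are too few to cover all 5 diets for every gene. None of the flagged groups is from HFC, which does not show that no HFC array stood far. The groups share arrays and are not independent.

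HF75 Week 15 was far below the other HF75 arrays for 10 genes: Ccl3 (-6.02), Ccl4 (-4.13), Ccl5 (-3.86), Cxcl1 (-4.06), Cxcl2 (-8.60), Ccr7 (-7.43), Cxcr4 (-4.24), Cxcr5 (-7.19), Cxcr6 (-5.29) and Xcl1 (-8.58). It was far above them for Ccl27a (1.19). This array has BA in its title and is the only HF75 array with such a title. HF20 Week 12, also titled with BA and the only such HF20 array, was far below the other HF20 arrays for Ccl3 (-8.56) and Cxcr4 (-5.60).

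Other titled arrays far below their diet were HF5 Week 9 for Ccl2 (-1.85) and LFC Week 18 for Ccr9 (-7.00). HF5 Week 12, an array with many marked spots, was far below the other HF5 arrays for Cxcl9 (-3.42) and Cxcl12 (1.82). HF20 Week 9 was far above the other HF20 arrays for Ccl24 (1.19) and Cxcr6 (-0.72).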

How the results depend on the processing

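In the 4 diet comparisons and the slope, 0 genes passed in limma under every alternative run. Between titles 37 passed, 22 with quantile normalization, and 23 to 38 when a time label was left out, 23 without Week 9. Without the time label as a replicate block 39 passed between titles and 0 in each diet comparison, where Cxcl9 differed by -2.31, -1.84 and -1.45 at 5, 20 and 75 µg. That fit sets the doses, which start at Week 3, against all 11 HFC arrays. Among these are Day 1 to Week 0, where Cxcl9 was 2.54 to 3.17, so time and dose are mixed in these 3 values. The diets share only time labels, and the slope has no such block.

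Directions turned for 4 of the named genes. Ccl2 in HFC against LFC was -0.13 without the 3 arrays with many marked spots, an alternative added after seeing the data, and -0.18 to 0.98 with a time label left out. For the slope of Ccl27a the other probes gave -0.049 and -0.0023. Between titles the other probes gave 0.29 for Cxcl15 and -0.53 and -0.85 for Ccl27a. The title difference of Cxcl12, 0.02, was -0.49 with quantile normalization, -0.19 with the methods' t-test, -0.59 with array weights, -0.23 with no replicate block, -0.42 without the 3 arrays with many marked spots, -0.73 on its other probe and -0.15 to 0.25 with a time label left out. The causes were not tested. Exchanging the labels of Day 14, also added later, turned no named gene. Many receptors and some ligands were near background on part of the arrays, which limits their differences.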
